A study of Homo sapiens with 4 samples.

Results

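The genes described here are 54 genes of DNA replication and mitosis, taken by symbol from a table of 58740 human genes; all 54 symbols were found, once each. They were split by the phase in which their products act, as commonly described, into 24 replication (G1/S) genes and 30 mitosis (G2/M) genes, with MYBL2 placed in the first group and CCNA2 in the second. RNA sequencing was done on spheroids of 4 established human colon cell lines, all labelled wild type and grown for 7 days in low-attachment plates with 24 wells, in medium with 10% fetal bovine serum. HCT116, DLD-1 and SW620 are colorectal cancer lines, the last from a lymph node metastasis, and HCEC-1CT is a non-cancerous colon line that was immortalised with CDK4 and TERT. Each line gave 1 library, made from RNA pooled over 2 plates of picked compact spheroids, so no value has a replicate and no test was possible.

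DNA is copied once per cell cycle. In G1 the origin recognition complex, CDC6 and CDT1 load the MCM2-7 helicase onto origins, and cyclin E with CDK2 helps to start S phase, when CDC45 and GINS turn the loaded helicase on. Mitosis follows under CDK1 with cyclins A and B, and ends when the anaphase-promoting complex, with its activator CDC20, marks securin and cyclin B for destruction. The first set of genes is switched on largely by E2F factors late in G1, and the second by the MuvB complex with B-MYB and FOXM1 in G2. In resting cells the DREAM complex represses both sets, and in the colon the cells that express them lie in the lower crypt.

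The start regions of the members were searched for the sequence elements of these controls. RefSeq promoters (GRCh38.p14, 250 bases before to 50 after a start) were matched for 44 of the 54 members, 20 of replication and 24 of mitosis, and the first start listed for each gene was read on both strands. The CHR element, to which the MuvB complex binds, was searched as TTTGAA or TTCGAA. It lay in 17 of the 24 mitosis promoters and in 1 of the 20 replication promoters, MCM6, against 16.6% of 27305 promoters of all genes. An E2F motif, searched as TTTCCCGC, TTTCGCGC, TTTGCCGC or TTTGGCGC, lay in 2 of the 24 mitosis promoters, CENPA and CDK1, and in 14 of the 20 replication promoters, against 3.33% of all promoters. A CCAAT box, bound by NF-Y, lay in 18 and in 14 of them, against 35.7% of all promoters. The mitosis promoters without a CHR match were those of CENPE, CCNA2, CCNB1, KIF20A, CDC25C, PTTG1 and AURKB. No E2F match lay in the replication promoters of ORC1, FEN1, PRIM1, CCNE1, MYBL2 and CDC45. Matches on opposite strands can overlap, as in MCM6, and a match is a run of letters and not a measured site. The 120 bases just before the start are given for 3 mitosis genes, with the CHR in capitals, and for 3 replication genes, with the E2F motif in capitals, because these are the elements in which the groups differ most.
CCNB2 (cyclin B2, chr15:59105026-59105145, plus strand): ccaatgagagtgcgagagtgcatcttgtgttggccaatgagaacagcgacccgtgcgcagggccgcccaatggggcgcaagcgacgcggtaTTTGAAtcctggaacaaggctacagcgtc
PLK1 (polo-like kinase 1, chr16:23678769-23678888, plus strand): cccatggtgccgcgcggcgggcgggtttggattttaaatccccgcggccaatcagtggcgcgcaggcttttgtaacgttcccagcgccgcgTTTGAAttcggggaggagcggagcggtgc
MKI67 (the Ki-67 antigen, chr10:128126424-128126543, minus strand): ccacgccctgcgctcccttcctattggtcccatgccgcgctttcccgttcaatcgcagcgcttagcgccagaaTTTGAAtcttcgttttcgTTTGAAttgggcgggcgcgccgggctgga
MCM6 (helicase subunit, chr2:135876444-135876563, minus strand): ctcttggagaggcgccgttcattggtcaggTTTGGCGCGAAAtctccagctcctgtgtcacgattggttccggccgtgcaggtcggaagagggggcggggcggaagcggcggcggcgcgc
E2F1 (E2F transcription factor, chr20:33686386-33686505, minus strand): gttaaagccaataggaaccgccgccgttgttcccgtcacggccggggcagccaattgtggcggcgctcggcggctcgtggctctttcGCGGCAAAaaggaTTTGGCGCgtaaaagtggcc
CDC25A (CDK-activating phosphatase, chr3:48188418-48188537, minus strand): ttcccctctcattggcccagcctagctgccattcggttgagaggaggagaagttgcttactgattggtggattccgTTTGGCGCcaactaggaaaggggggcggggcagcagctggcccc

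Levels are FPKM as the authors deposited them, fragments scaled to transcript length and library size, so genes can be set side by side; counting them as fragments rests on a depth of about 23300000 to 29500000 fragments per library that was read from the low values. Across genes with at least 1 FPKM in every library, the median log2 ratio over HCEC-1CT was 0.38 for HCT116, 0.42 for DLD-1 and 0.30 for SW620, a shift that all ratios below include. Mitochondrial genes held 10.57% of the summed FPKM for HCT116, 3.42% for DLD-1 and 3.91% for SW620, against 1.79% in HCEC-1CT. All 4 lines are labelled epithelial, and this label was checked against marker lists. Of 9 epithelial markers, 1, 0 and 0 were under 1 FPKM in HCT116, DLD-1 and SW620, against 7 in HCEC-1CT, where EPCAM, CDH1, KRT19 and KRT20 were listed at 0. Of 9 fibroblast or pericyte markers, 8, 8 and 7 were under 1 FPKM in the cancer lines, against 0 in HCEC-1CT, and their summed level was 1.46 to 27.96 FPKM in the cancer lines, against 1079 FPKM in HCEC-1CT. The markers of HCEC-1CT thus go against its label. The sum of 4 leukocyte markers stayed under 10 FPKM in each library; the part of these cell type differences in the results below was not tested.

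All 54 members stood higher in each cancer line than in HCEC-1CT. Their summed level was 620 FPKM in HCT116, 1104 FPKM in DLD-1 and 472 FPKM in SW620, against 88.7 FPKM in HCEC-1CT, or 0.204%, 0.374% and 0.153% of the nuclear protein-coding total in the cancer lines, against 0.0316% in HCEC-1CT. Ratios were taken after adding 1 FPKM to both values, so those of low genes come out too small. By that measure 49 of 54 members were 2-fold or more higher in HCT116, where 30.8% of all genes past the filter were. In DLD-1 it was 53 of 54, against 29.3% of all genes, and in SW620 45 of 54, against 28.7%. None of the 54 was 2-fold lower in any cancer line, while 15% of all genes were lower for HCT116, 14.6% for DLD-1 and 16.4% for SW620. The filter asked for 1 FPKM in at least 1 of the 2 libraries compared, and every member reached 1 FPKM in all 3 cancer lines, but 38 of them passed only through the cancer line. The members under 2-fold in HCT116 were MCM7, CDC45, POLA1, CDK2 and KIF23, with log2 ratios of 0.72 to 0.95, and in DLD-1 it was CDK2, with 0.71. In SW620 they were MCM4, MCM7, POLE, CDK2, CCNE1, CCNE2, MAD2L1, KIF23 and BIRC5, with log2 ratios of 0.11 to 0.88. The 3 comparisons share the HCEC-1CT library, so they do not repeat one another. In bulk RNA, fewer cycling cells and less of each RNA per cycling cell cannot be told apart.

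**Figure D1:**
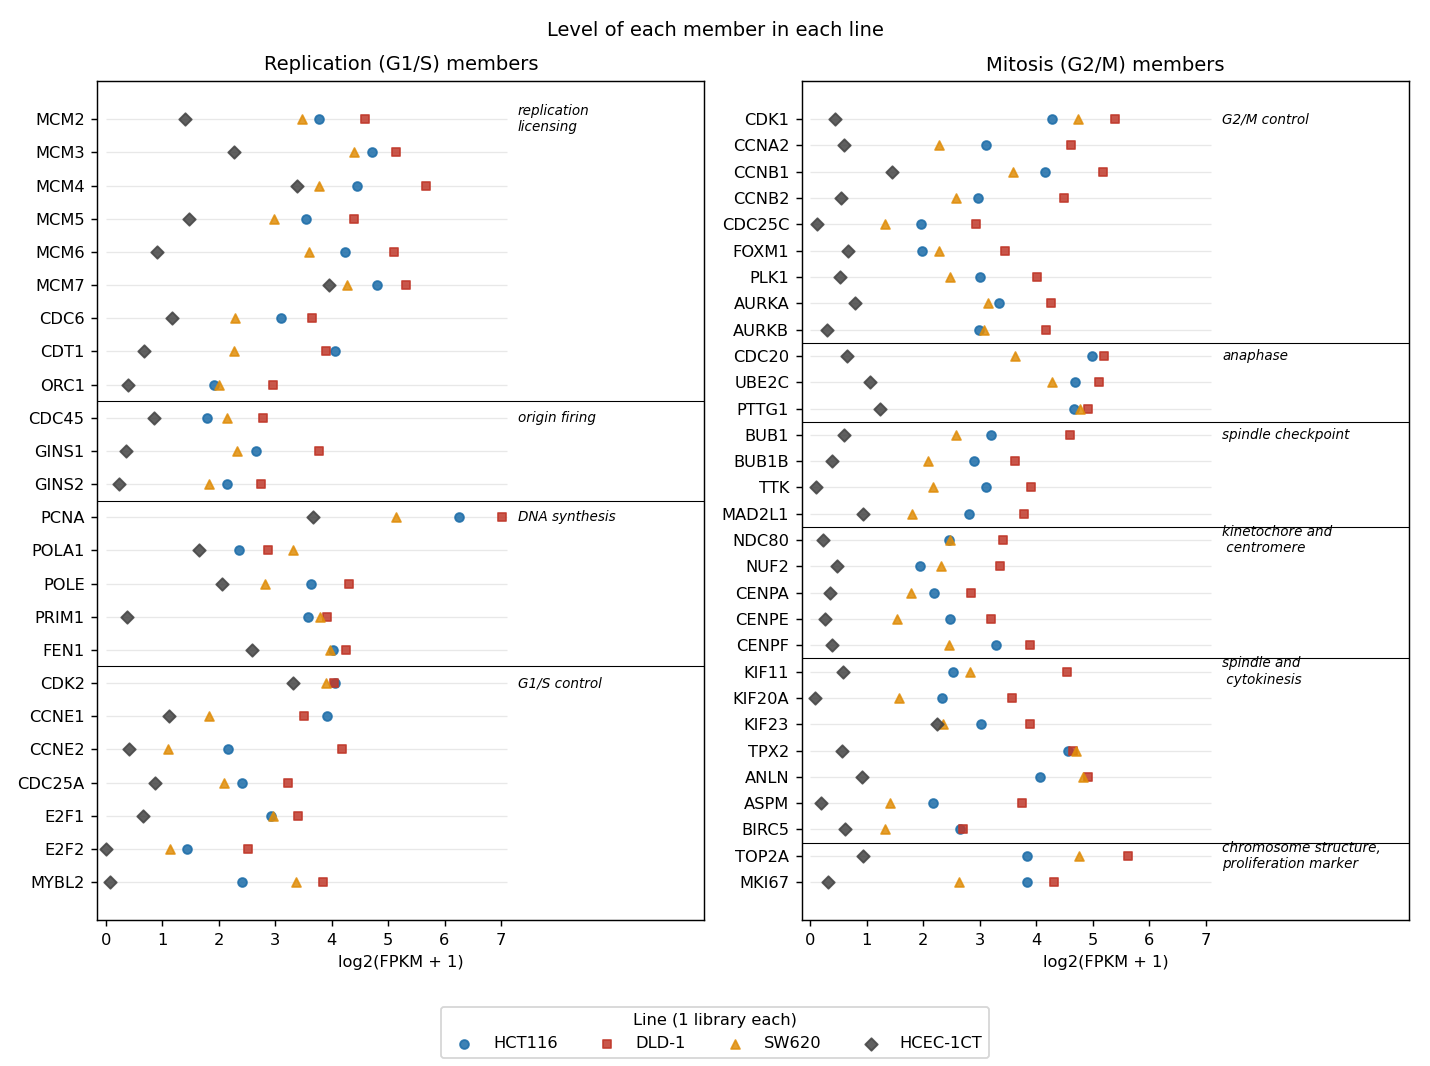
Level of each of the 54 members in log2(FPKM + 1) on the horizontal axis, for HCT116, DLD-1, SW620 and HCEC-1CT, with 1 point per library and genes grouped by role (replication left, mitosis right). HCEC-1CT is the lowest of the 4 points for all 54 genes, and DLD-1 the highest for 49 of them.

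The mitosis genes lay further above HCEC-1CT than the replication genes. The median log2 ratio of the 30 mitosis genes was 2.53 for HCT116, 3.63 for DLD-1 and 2.05 for SW620, and that of the 24 replication genes was 1.93, 2.55 and 1.49, while the median over all genes past the filter was 0.39, 0.43 and 0.29. The mitosis median thus exceeded the replication median by 0.60 for HCT116, 1.08 for DLD-1 and 0.56 for SW620. The size of this gap depended on the settings tried, from 0.19 to 1.20 for HCT116, 0.49 to 1.68 for DLD-1 and 0.22 to 1.51 for SW620, with the pseudocount giving both ends except the upper one in SW620, which came from a filter at 5 FPKM. In HCEC-1CT, 26 of 30 mitosis genes were under 1 FPKM, with a median level of 0.470 FPKM, while 12 of 24 replication genes were, with a median level of 1.03 FPKM. Seen per gene, HCEC-1CT held a median of 5.58% of the HCT116 level, 2.24% of the DLD-1 level and 8.25% of the SW620 level over the mitosis genes. Over the replication genes these were 14.0%, 8.95% and 23.6%. Within a line the mitosis median level was 0.654 times the replication median for HCT116, 1.15 times for DLD-1 and 0.668 times for SW620, against 0.456 times in HCEC-1CT. The few fragments behind the low values, a median of about 35 per mitosis gene in HCEC-1CT and about 5 for AURKB, limit how exactly such ratios can be read.

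**Figure D2:**
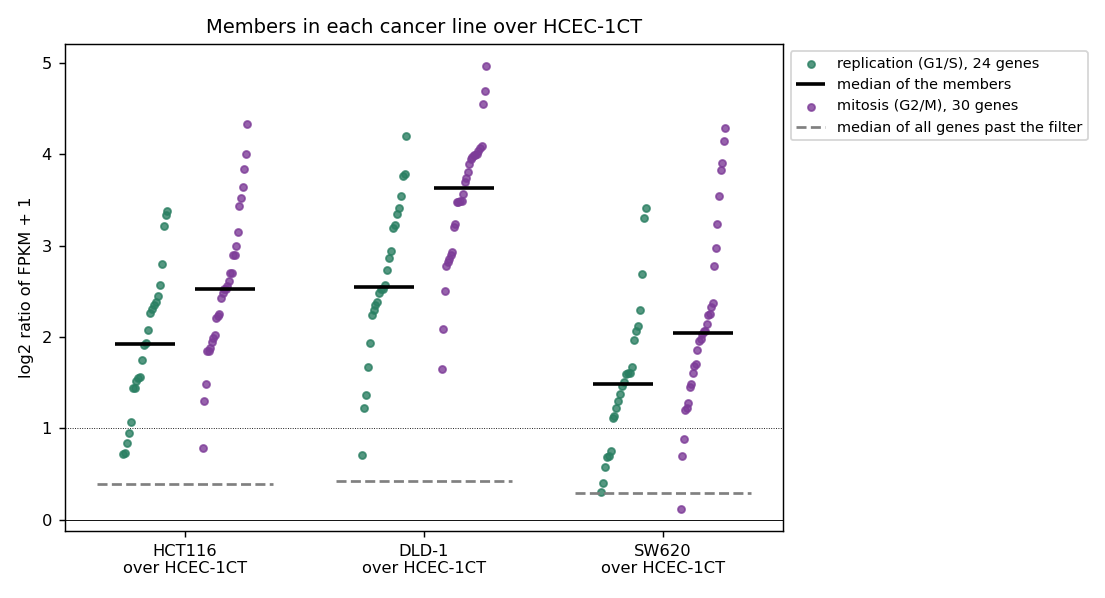
Log2 ratio of FPKM + 1 in HCT116, DLD-1 and SW620 over HCEC-1CT; each point is 1 gene, black bars are medians of the 24 replication and 30 mitosis genes, dashed lines medians of all genes past the filter, and the dotted line marks 2-fold. The mitosis medians (2.53, 3.63 and 2.05) lie above the replication medians (1.93, 2.55 and 1.49), and the medians of all genes lie under 0.5.

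Among the licensing genes, the 6 subunits of the MCM2-7 helicase work as a ring with 1 copy of each. Their levels lay within a narrow range in the cancer lines, 10.7 to 26.8 FPKM in HCT116, 20.2 to 50.1 FPKM in DLD-1 and 6.87 to 19.97 FPKM in SW620, against 0.875 to 14.5 FPKM in HCEC-1CT. The highest subunit was thus 2.51, 2.48 and 2.91 times the lowest in the cancer lines, and 16.6 times the lowest in HCEC-1CT. In HCEC-1CT, MCM2, MCM3 and MCM5 lay at 1.65, 3.82 and 1.76 FPKM and MCM4 at 9.44 FPKM, while MCM6 and MCM7 stood at the ends of the range. MCM6 stood at 17.9 FPKM in HCT116, 33.5 FPKM in DLD-1 and 11.1 FPKM in SW620, against 0.875 FPKM in HCEC-1CT. MCM7 stood at 26.8, 39.0 and 18.2 FPKM in the same cancer lines, against 14.5 FPKM in HCEC-1CT. MCM6 therefore had log2 ratios of 3.33, 4.20 and 2.68, the largest of the 6, and MCM7 had the smallest, 0.84, 1.36 and 0.31 in HCT116, DLD-1 and SW620. Much of the MCM7 level in HCEC-1CT came from a transcript annotated as a retained intron, MCM7-209, which held 36.4% of the gene for HCT116, 55.2% for DLD-1 and 59.3% for SW620, against 59.8% in HCEC-1CT. Over protein-coding transcripts alone MCM7 had log2 ratios of 1.91, 1.90 and 0.78 in HCT116, DLD-1 and SW620, and the smallest in HCT116 and SW620 was then MCM4, with 1.12 and 0.57. MCM6 kept the largest. By the same count the highest subunit was 2.88, 2.93 and 4.79 times the lowest in the cancer lines, and 7.84 times in HCEC-1CT. The MCM7 exons also overlap those of AP4M1 on the other strand, and the sources used here do not say whether reads were assigned by strand.

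**Figure D3:**
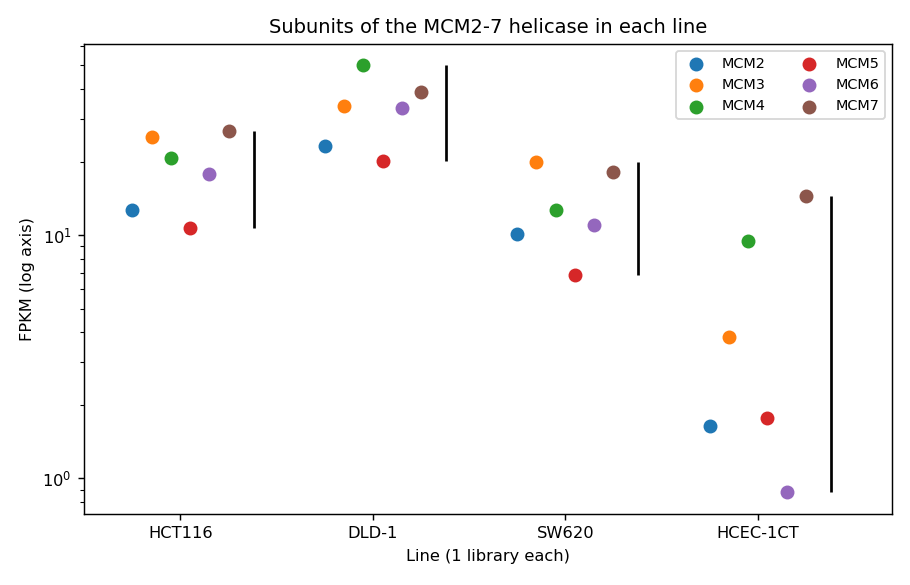
FPKM of MCM2 to MCM7 in HCT116, DLD-1, SW620 and HCEC-1CT on a log axis; each point is 1 gene in 1 library and the vertical bar spans the lowest to the highest subunit. The bar spans 2.48 to 2.91 times in the cancer lines and 16.6 times in HCEC-1CT.

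The loading factors differed among the cancer lines. CDT1, which brings the helicase to origins, stood at 15.7 FPKM in HCT116, 14.0 FPKM in DLD-1 and 3.83 FPKM in SW620, against 0.602 FPKM in HCEC-1CT. CDC6, the ATPase that loads it, stood at 7.60, 11.5 and 3.87 FPKM in HCT116, DLD-1 and SW620, against 1.25 FPKM in HCEC-1CT. Hence CDT1 was 2.07 times the CDC6 level for HCT116, 1.22 times for DLD-1 and 0.991 times for SW620, against 0.482 times in HCEC-1CT. In DLD-1, 51.4% of CDT1 was CDT1-202, a retained intron, and over coding transcripts the ratio of CDT1 to CDC6 was 1.30 for HCT116, 0.629 for DLD-1 and 0.950 for SW620, against 0.389 in HCEC-1CT. The order of the pair in DLD-1 thus turned with the transcripts counted. ORC1, the cell-cycle-regulated subunit of the origin recognition complex, had 2.78, 6.82 and 3.01 FPKM in HCT116, DLD-1 and SW620, against 0.322 FPKM in HCEC-1CT. The firing factors CDC45, GINS1 and GINS2 were each under 1 FPKM in HCEC-1CT and between 2.48 and 12.7 FPKM in the cancer lines.

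Of the DNA synthesis genes, PCNA, the sliding clamp of the polymerases, was the most abundant member in each cancer line. It stood at 75.1 FPKM in HCT116, 129 FPKM in DLD-1 and 34.3 FPKM in SW620, against 11.8 FPKM in HCEC-1CT, with log2 ratios of 2.57, 3.34 and 1.46. The 2 members that encode subunits of the polymerase alpha-primase complex parted. POLA1, the catalytic subunit of polymerase alpha, stood at 4.15, 6.31 and 8.95 FPKM in HCT116, DLD-1 and SW620, against 2.13 FPKM in HCEC-1CT. PRIM1, the small primase subunit, stood at 11.02, 14.1 and 12.8 FPKM in the same lines, against 0.299 FPKM in HCEC-1CT. POLA1 was the only replication gene whose highest level was in SW620, while PRIM1 was far lower in HCEC-1CT than in the cancer lines. PRIM1 exons overlap those of NACA on the same strand. PRIM1-208, annotated as a target of nonsense-mediated decay, held 12.8%, 56.7% and 38.5% of the gene in HCT116, DLD-1 and SW620, against 84.4% in HCEC-1CT. Over coding transcripts PRIM1 stood at 9.22, 4.75 and 7.45 FPKM in HCT116, DLD-1 and SW620, against 0.0468 FPKM in HCEC-1CT, so that DLD-1 was then the lowest cancer line. POLE and FEN1, the leading-strand polymerase and the flap nuclease of lagging-strand synthesis, had 3.18 and 5.01 FPKM in HCEC-1CT and 6.03 to 18.8 FPKM in the cancer lines.

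The G1/S regulators ranged from one of the smallest ratios of all members to a gene listed at 0 in HCEC-1CT. CDK2, the kinase partner of cyclin E, stood at 15.6 FPKM in HCT116, 15.4 FPKM in DLD-1 and 13.9 FPKM in SW620, against 9.02 FPKM in HCEC-1CT, and was under 2-fold in each line. Most of its HCEC-1CT level, 59.1%, was assigned to CDK2-205, a short processed transcript of 445 bases; over coding transcripts alone the CDK2 level was 6.65, 9.34 and 11.7 FPKM in HCT116, DLD-1 and SW620, against 2.62 FPKM in HCEC-1CT. E2F2, an activating E2F, stood at 1.71, 4.76 and 1.20 FPKM in HCT116, DLD-1 and SW620 and was listed at 0 in HCEC-1CT, the only member at 0 in any library. MYBL2, which encodes B-MYB, stood at 4.35, 13.4 and 9.40 FPKM in those lines, against 0.0501 FPKM in HCEC-1CT, a value that rests on about 4 fragments. CDC25A, a phosphatase that activates CDK2, stood at 4.34, 8.33 and 3.26 FPKM in HCT116, DLD-1 and SW620, against 0.824 FPKM in HCEC-1CT. Like most of this role, it was highest in DLD-1. E2F1 stood at 6.60, 9.54 and 6.77 FPKM in the cancer lines, against 0.583 FPKM in HCEC-1CT.

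The 2 cyclin E genes changed places between lines. CCNE1 stood at 14.2 FPKM in HCT116, 10.4 FPKM in DLD-1 and 2.54 FPKM in SW620, against 1.19 FPKM in HCEC-1CT. CCNE2 stood at 3.48, 17.1 and 1.14 FPKM in the cancer lines, against 0.330 FPKM in HCEC-1CT. CCNE1 was 4.09 times the CCNE2 level for HCT116, 0.609 times for DLD-1 and 2.23 times for SW620, against 3.60 times in HCEC-1CT. DLD-1 was thus the line with more CCNE2 than CCNE1. Over coding transcripts the ratio of CCNE1 to CCNE2 was 4.07 for HCT116, 0.531 for DLD-1 and 3.41 for SW620, against 4.57 in HCEC-1CT. CCNE2 was also the member with the widest gap between cancer lines, 3.08 on the log2 scale for DLD-1 over SW620, although its exons overlap those of INTS8 on the other strand.

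All 9 G2/M control genes were at least 2-fold higher, in HCT116 as in DLD-1 and SW620. CDK1, the mitotic kinase, was below CDK2 in HCEC-1CT, at 0.0394 times its level, but 1.18, 2.69 and 1.83 times its level in HCT116, DLD-1 and SW620. Over coding transcripts CDK1 was 2.58, 3.52 and 2.05 times the CDK2 level in HCT116, DLD-1 and SW620, against 0.128 times in HCEC-1CT. CCNB1, cyclin B1, stood at 16.8 FPKM in HCT116, 35.5 FPKM in DLD-1 and 11.1 FPKM in SW620, against 1.74 FPKM in HCEC-1CT. Cyclin A2, CCNA2, stood at 7.65, 23.6 and 3.83 FPKM in HCT116, DLD-1 and SW620, against 0.503 FPKM in HCEC-1CT. CCNB2, cyclin B2, whose CHR is printed above, stood at 6.85, 21.6 and 4.97 FPKM in HCT116, DLD-1 and SW620, against 0.464 FPKM in HCEC-1CT. CCNB1 was the only gene of this group at 1 FPKM in HCEC-1CT. PLK1, a kinase of mitotic entry, stood at 7.06, 15.1 and 4.57 FPKM in HCT116, DLD-1 and SW620, against 0.439 FPKM in HCEC-1CT, and AURKB, the kinase of the chromosomal passenger complex, at 6.94, 17.1 and 7.39 FPKM, against 0.220 FPKM. Over coding transcripts PLK1 was at 0 in HCEC-1CT, where 60.1% of it was PLK1-202, a retained intron. PLK1 exons overlap those of ERN2 on the other strand, at 45.2 FPKM in DLD-1 and at most 0.370 FPKM elsewhere. In DLD-1, 34.3% of AURKB was AURKB-205, also a retained intron. Over coding transcripts AURKB stood at 5.14, 7.18 and 6.82 FPKM in HCT116, DLD-1 and SW620, against 0.103 FPKM in HCEC-1CT. The log2 ratio of DLD-1 over SW620 was then 0.07. CDC25C, a phosphatase that activates CDK1, stood at 2.91, 6.68 and 1.51 FPKM in HCT116, DLD-1 and SW620, against 0.0899 FPKM in HCEC-1CT, where about 5 fragments stand behind it. AURKA, the centrosomal Aurora kinase, stood at 9.14, 18.2 and 7.91 FPKM in HCT116, DLD-1 and SW620, against 0.728 FPKM in HCEC-1CT. Its transcribed pseudogene AURKAPS1 held 1.33, 2.14 and 0.169 FPKM in those lines, against 0.813 FPKM in HCEC-1CT, above AURKA there. How reads were divided between them was not tested. All of these kinases and phosphatases were highest in DLD-1. FOXM1, which activates many of these genes, stood lower than most of them in the cancer lines, at 2.93, 9.96 and 3.86 FPKM in HCT116, DLD-1 and SW620, against 0.596 FPKM in HCEC-1CT.

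The 3 anaphase genes had median log2 ratios of 3.64 for HCT116, 4.06 for DLD-1 and 3.23 for SW620. CDC20, the activator of the anaphase-promoting complex, stood at 30.7 FPKM in HCT116, 35.9 FPKM in DLD-1 and 11.3 FPKM in SW620, against 0.573 FPKM in HCEC-1CT. UBE2C, the ubiquitin-conjugating enzyme of that complex, stood at 24.8, 33.7 and 18.5 FPKM in HCT116, DLD-1 and SW620, against 1.08 FPKM in HCEC-1CT. PTTG1, securin, which holds separase in check, stood at 24.4, 29.4 and 26.3 FPKM in the same lines, against 1.35 FPKM in HCEC-1CT. PTTG1 was nearly even across the cancer lines while CDC20 was not. The copies PTTG2, PTTG3P and those of UBE2C held at most 0.426 FPKM in any library.

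The checkpoint and kinetochore genes were uniformly low in HCEC-1CT. TTK, the MPS1 kinase of the spindle checkpoint, stood at 7.62 FPKM in HCT116, 14.0 FPKM in DLD-1 and 3.51 FPKM in SW620, against 0.0773 FPKM in HCEC-1CT, where about 8 fragments stand behind it. BUB1, a checkpoint kinase of the kinetochore, stood at 8.24, 23.3 and 4.94 FPKM in HCT116, DLD-1 and SW620, against 0.510 FPKM in HCEC-1CT. A retained intron, BUB1-207, held 58.9%, 60.9% and 63.7% of the gene in HCT116, DLD-1 and SW620. Over coding transcripts BUB1 stood at 2.59, 7.25 and 1.48 FPKM in these lines, against 0.270 FPKM in HCEC-1CT. Its log2 ratio in SW620 was then 0.96, under 2-fold. BUB1B, which encodes BUBR1, stood at 6.50, 11.3 and 3.24 FPKM in HCT116, DLD-1 and SW620, against 0.299 FPKM in HCEC-1CT. MAD2L1, which encodes the checkpoint protein MAD2, was under 2-fold higher in SW620, with a log2 ratio of 0.88, or 1.10 over coding transcripts. The 5 kinetochore and centromere genes, NDC80, NUF2, CENPA, CENPE and CENPF, had 1.91 to 13.8 FPKM in the cancer lines, against 0.164 to 0.379 FPKM in HCEC-1CT. In all 4 checkpoint genes SW620 was the lowest cancer line.

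The spindle and cytokinesis genes ranged widely in their ratios over HCEC-1CT, with TPX2 and KIF23 at the ends in HCT116, DLD-1 and SW620. TPX2, which targets Aurora A to the spindle, stood at 22.7 FPKM in HCT116, 24.2 FPKM in DLD-1 and 25.1 FPKM in SW620, against 0.476 FPKM in HCEC-1CT. KIF23, a motor of the central spindle, stood at 7.13, 13.8 and 4.10 FPKM in HCT116, DLD-1 and SW620, against 3.71 FPKM in HCEC-1CT. KIF23 was the mitosis gene highest in HCEC-1CT, and its log2 ratio of 0.11 in SW620 became -0.12 under both median-ratio and TPM scaling. ANLN, the actin-binding protein anillin of the cleavage furrow, stood at 15.8, 29.1 and 27.3 FPKM in HCT116, DLD-1 and SW620, against 0.888 FPKM in HCEC-1CT. KIF20A, a kinesin of the central spindle, stood at 4.05, 10.9 and 1.98 FPKM in HCT116, DLD-1 and SW620, against 0.0629 FPKM in HCEC-1CT, where about 6 fragments stand behind it. Its order, with DLD-1 highest and SW620 the lowest cancer line, was shared by KIF23 and ASPM but not by ANLN. BIRC5, survivin, stood at 5.26, 5.53 and 1.49 FPKM in those lines, against 0.537 FPKM in HCEC-1CT, and was under 2-fold in SW620. TOP2A, the topoisomerase that untangles chromosomes, stood at 13.2, 48.4 and 26.2 FPKM in HCT116, DLD-1 and SW620, against 0.909 FPKM in HCEC-1CT. The proliferation marker MKI67 stood at 13.2, 18.9 and 5.23 FPKM in HCT116, DLD-1 and SW620, against 0.244 FPKM in HCEC-1CT.

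The 3 cancer lines were also set against each other. DLD-1 was the highest of the 4 lines for 49 of 54 members, HCT116 for 3 and SW620 for 2. The 3 highest in HCT116 were CDT1, CDK2 and CCNE1; under TPM scaling DLD-1 stood above HCT116 for CDT1 and CDK2, but not for CCNE1. The 2 highest in SW620 were POLA1 and TPX2, and DLD-1 stood above SW620 for TPX2 under TPM and protein-coding scaling. Other settings placed more members below: over coding transcripts DLD-1 stood below HCT116 for MCM7, CDT1, PRIM1 and CCNE1 and below SW620 for POLA1, PRIM1, CDK2 and TPX2. Median-ratio scaling placed ANLN below SW620 as well. The commonest order, DLD-1 over HCT116 over SW620 over HCEC-1CT, held for 35 members, and 14 had SW620 over HCT116 in the middle.

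Between DLD-1 and HCT116, 18 of 54 members were 2-fold or more higher in DLD-1, 12 of mitosis and 6 of replication, where 20.1% of all genes were, and none was 2-fold lower, where 18.3% were. With TPM scaling 36 were higher, where 31.8% of all genes were. KIF11, the motor that separates spindle poles, stood at 22.4 FPKM in DLD-1 and 4.76 FPKM in HCT116, a log2 ratio of 2.02. Against SW620, 37 of 54 members were higher in DLD-1, 23 of mitosis and 14 of replication, where 21.1% of all genes were, and none was lower, where 16.2% were. ASPM, a spindle pole protein, stood at 12.4 FPKM in DLD-1 and 1.66 FPKM in SW620, a log2 ratio of 2.34. Between SW620 and HCT116, 8 members were 2-fold or more lower in SW620, where 16.6% of all genes were, and none was higher, where 14.2% were. Those 8 were CCNE1, CDT1, CDC20, BIRC5, MKI67, PCNA, CCNE2 and MAD2L1, with log2 ratios of -2.10 to -1.003. The median log2 ratio of the members was 0.97 for mitosis and 0.73 for replication in DLD-1 over HCT116, and 1.53 and 1.13 in DLD-1 over SW620. In SW620 over HCT116 it was -0.55 for mitosis and -0.33 for replication.

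**Figure D4:**
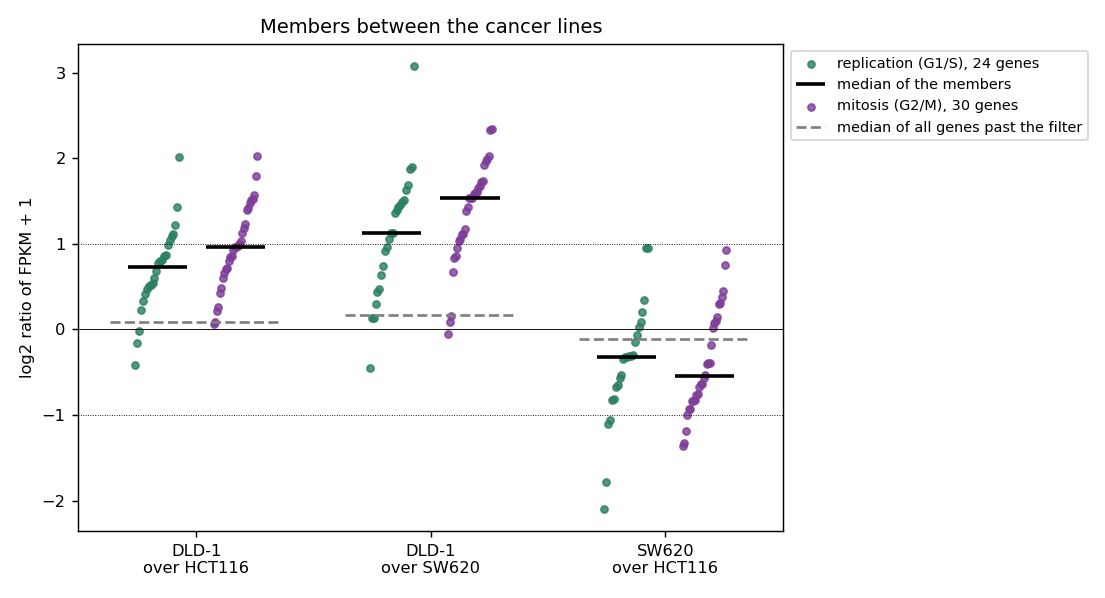
Log2 ratio of FPKM + 1 for DLD-1 over HCT116, DLD-1 over SW620 and SW620 over HCT116; each point is 1 gene, black bars are medians of the members, dashed lines medians of all genes past the filter, dotted lines 2-fold in each direction. Most members lie above 0 in the comparisons with DLD-1 on top, and the medians for SW620 over HCT116 are -0.33 for replication and -0.55 for mitosis.

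The members lie on 19 chromosomes, and chromosome 20 carries the most, 7: GINS1, PCNA, E2F1, MYBL2, AURKA, UBE2C and TPX2. Their median log2 ratio over HCEC-1CT was 2.55 for HCT116, 3.48 for DLD-1 and 2.37 for SW620, while that of the other 47 members was 2.21, 3.19 and 1.61. For SW620 over HCT116 it was -0.19 on chromosome 20 and -0.53 elsewhere. The chromosome 20 median was the lower one for DLD-1 over HCT116, 0.77 against 0.86, and for DLD-1 over SW620, 0.83 against 1.43. The 2 groups of genes differ in role as well as in place.

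At the level of transcripts, 36 of 54 members had the same most abundant transcript in the 3 cancer lines, and 25 had the same one in every library with a value. The most abundant transcript was not annotated as coding for 3 members for HCT116, 6 for DLD-1 and 3 for SW620, against 9 in HCEC-1CT. In MCM4, the leading transcript was MCM4-215 with 70.7%, 79.4% and 78.3% of the gene in HCT116, DLD-1 and SW620, against 10.9% in HCEC-1CT, where MCM4-201 held 59.9%. Both are annotated as coding. Shares in HCEC-1CT rest on few fragments for most mitosis genes.

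Other genes of the same pathways, listed from textbook knowledge, were counted in the same way. These lists too were chosen with earlier results of these data known. Of 39 other replication genes, 28 were 2-fold or more higher for HCT116, 31 for DLD-1 and 23 for SW620, and 0 were lower, with median log2 ratios of 1.58, 1.77 and 1.12. Of all genes past the filter, 30.8%, 29.3% and 28.7% were higher in these lines, and 15%, 14.6% and 16.4% were lower. ASF1B, a histone chaperone, stood at 11.2 FPKM in HCT116, 23.0 FPKM in DLD-1 and 6.86 FPKM in SW620, against 0.240 FPKM in HCEC-1CT, and UHRF1, which maintains DNA methylation at forks, at 10.7, 16.1 and 6.63 FPKM, against 0.248 FPKM. Of 8 genes for nucleotide supply, 5, 8 and 5 were higher in HCT116, DLD-1 and SW620, and none was lower. RRM2, the regulated subunit of ribonucleotide reductase, stood at 12.2, 48.3 and 9.92 FPKM in HCT116, DLD-1 and SW620, against 0.951 FPKM in HCEC-1CT. TYMS, thymidylate synthase, stood at 14.5, 65.9 and 8.32 FPKM in those lines, against 4.40 FPKM in HCEC-1CT. In both genes DLD-1 stood above all other lines. That did not hold for every leading gene of these lists. TK1, also of nucleotide supply, stood at 42.2, 35.1 and 15.9 FPKM in HCT116, DLD-1 and SW620, against 0.549 FPKM in HCEC-1CT. RFC4, of the other replication genes, stood at 18.0, 10.3 and 17.6 FPKM in HCT116, DLD-1 and SW620, against 2.32 FPKM in HCEC-1CT.

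Of 60 other mitosis genes, 50 were 2-fold or more higher for HCT116, 55 for DLD-1 and 45 for SW620, and 0 were lower, with medians of 1.97, 2.65 and 1.57. CDKN3, a phosphatase that acts on CDKs, stood at 12.5 FPKM in HCT116, 24.6 FPKM in DLD-1 and 15.9 FPKM in SW620, against 0.0924 FPKM in HCEC-1CT. NUSAP1, which bundles spindle microtubules, stood at 17.7, 25.6 and 9.36 FPKM in HCT116, DLD-1 and SW620, against 0.910 FPKM in HCEC-1CT. The lists for cohesin, degradation and centrosome duplication were closer to the share of all genes, which was 30.8% for HCT116, 29.3% for DLD-1 and 28.7% for SW620. Each of them still lay above that share in HCT116 and DLD-1. The share of all genes that were lower was 15% for HCT116, 14.6% for DLD-1 and 16.4% for SW620. Of 10 cohesin genes, 4, 5 and 4 were higher in HCT116, DLD-1 and SW620, and 1 was lower, STAG1 in SW620. Of 18 genes for APC/C and SCF degradation 6, 7 and 5 were higher, and 1 was lower, CUL1 in HCT116. SKP2, the F-box protein that marks CDKN1B for destruction, stood at 5.91, 14.8 and 6.95 FPKM in HCT116, DLD-1 and SW620, against 0.802 FPKM in HCEC-1CT. Of 11 centrosome duplication genes, 5, 7 and 3 were higher and none was lower. ANAPC11, a core subunit of the anaphase-promoting complex, stood at 60.2 FPKM in HCT116, 16.8 FPKM in DLD-1 and 63.3 FPKM in SW620, against 15.7 FPKM in HCEC-1CT, so DLD-1 and HCEC-1CT lay together.

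The list of cell cycle brakes and pocket proteins did not follow the members. Of its 29 genes, 9 were higher for HCT116, 9 for DLD-1 and 7 for SW620, while 2, 3 and 3 were lower, with median log2 ratios of 0.42, 0.37 and 0.21, near those of all genes. Of all genes, 30.8%, 29.3% and 28.7% were higher in these lines, and 15%, 14.6% and 16.4% were lower. CDKN1A, the CDK inhibitor p21, stood at 97.5 FPKM in HCT116, 59.3 FPKM in DLD-1 and 23.9 FPKM in SW620, against 142 FPKM in HCEC-1CT. E2F7, a repressing E2F, stood at 3.10, 3.40 and 6.04 FPKM in HCT116, DLD-1 and SW620, against 11.7 FPKM in HCEC-1CT. Other E2F genes of the list differed from it: E2F8, also a repressor, stood at 2.19, 7.19 and 0.418 FPKM in HCT116, DLD-1 and SW620 and was listed at 0 in HCEC-1CT, and E2F3, an activator, at 10.04, 10.2 and 6.22 FPKM, against 10.1 FPKM in HCEC-1CT. E2F3 and E2F8 were picked after their values were seen. RB1, the retinoblastoma protein, stood at 16.2, 13.7 and 10.7 FPKM in the cancer lines, against 24.3 FPKM in HCEC-1CT. CDKN1C, the CDK inhibitor p57, stood at 18.4, 24.5 and 27.2 FPKM in HCT116, DLD-1 and SW620, against 1.99 FPKM in HCEC-1CT. It was among the 4 genes of this list with the largest median ratio, which all stood higher in each cancer line than in HCEC-1CT.

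**Figure D5:**
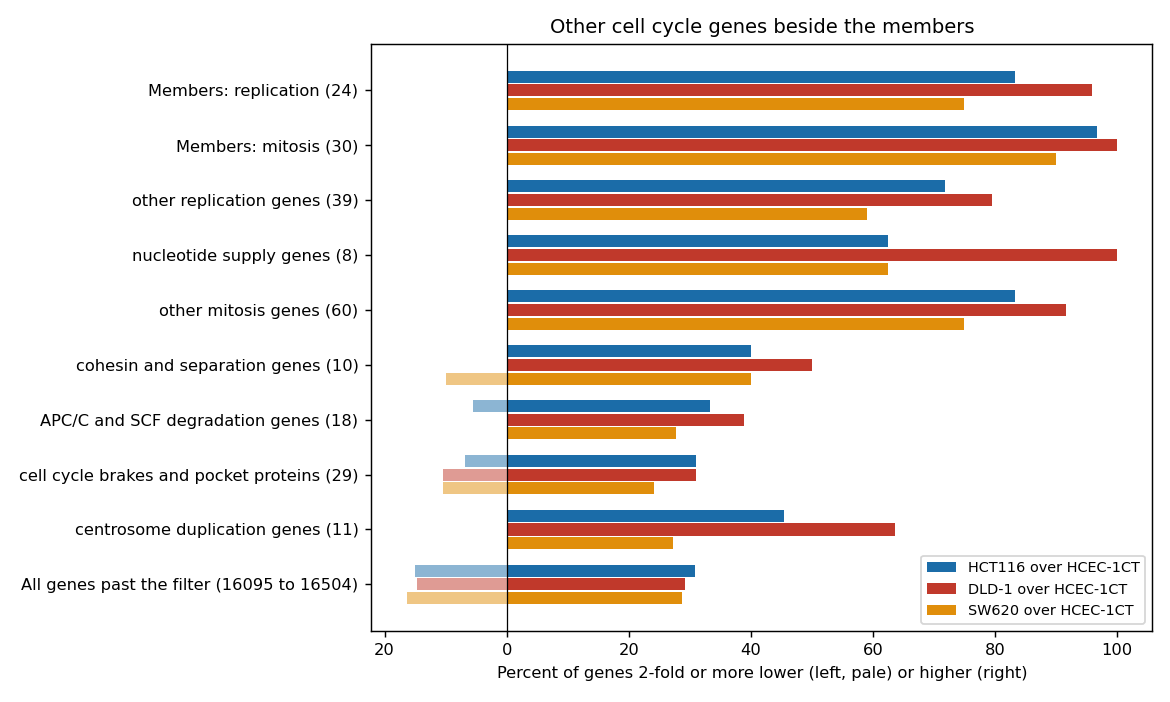
Percent of the genes of each list that were 2-fold or more higher (right) or lower (left, pale) in HCT116, DLD-1 and SW620 over HCEC-1CT, with the number of genes in parentheses. In the lists of other replication and other mitosis genes 23 of 39 or more and 45 of 60 or more are higher and 0 are lower, while the list of brakes and pocket proteins lies near the share of all genes.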

How the data were processed

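The authors deposited FPKM values for 58740 genes and, separately, for 207345 transcripts; FastQC, HISAT2 and the build hg38 are named in the submitters' processing notes, without versions. Which program and annotation produced them is not stated in the sources used here. Both tables hold 1 further value column that no sample's labels name; it was left out. Gene types, strands and transcript lengths came from GENCODE 29, whose coordinates equal those of the table for all 54 members. Depth was read from single-transcript genes, where FPKM times length piled up at multiples of 1 smallest value (tolerance 0.01); fragments per gene follow from it and are approximate. Log2 ratios used a pseudocount of 1; genes needed 1 FPKM in 1 of the 2 libraries compared and were counted at 2-fold. The rule allowed every member to be named. Of each other list it allowed the 4 genes with the largest absolute median ratio, any gene at 2-fold against its list, and fixed brakes. Not all of the genes allowed from the other lists are named above. Members and lists were chosen with earlier results of these data known. Counting was tested on simulated data. Of the members, 9 have a named pseudogene or close copy and 18 share exon bases with another gene. Python 3.11.15, pandas 2.3.3 and numpy 2.4.6 were used. Alternatives were other pseudocounts, scalings, filters and folds, and sets without boundary or overlapping genes; coding transcripts alone were added after seeing the data. One gene of the list of brakes is not reported here.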

Additional observations from a re-analysis of the deposited data

Results flagged for a closer look

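Among the other genes that the naming rule allowed, 3 lay above HCEC-1CT in 1 or more cancer lines and below it in others. Each had at least 1 ratio at 2-fold or more, and these differences were not tested. CDKN2A, which encodes p16 and ARF, had log2 ratios over HCEC-1CT of -0.91 for HCT116, -4.04 for DLD-1 and 0.21 for SW620, so that SW620 exceeded DLD-1 by 4.24. CDKN1B, the CDK inhibitor p27, had -0.06, 1.42 and 0.96 in HCT116, DLD-1 and SW620, a gap of 1.48 between DLD-1 and HCT116. E2F6, a repressing E2F, had 0.30, -0.38 and -1.62 in those lines, a gap of 1.92 between HCT116 and SW620. No member of the replication and mitosis set did so.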

How the results depend on the processing

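No paired analysis was possible because each line has 1 library, and no library could be left out. Of 138 recomputed values, 99 were labelled as keeping their size and 39 as moved, and the causes of the moves were not tested. Part of the 99 could not have changed. Dropping the filter changed nothing, because every member reached 1 FPKM in each cancer line. A count of 0 could not rise at 4-fold, with a pseudocount of 5 or with a filter of 5 FPKM. The total of 99 is therefore no measure of how stable the results are. The labels were loose for counts and strict for the median gap between mitosis and replication. In HCT116 over HCEC-1CT, 33 members higher at 4-fold instead of 49 at 2-fold were still labelled as keeping their size. The shares of all genes there were 10.3% and 30.8%. In DLD-1, a gap of 1.07 instead of 1.08 with protein-coding scaling was labelled as moved. Only a gap could be labelled reversed, and none was. The count of members higher over HCEC-1CT was 30 in HCT116 and 18 in SW620 with a pseudocount of 5, 22 in SW620 at 4-fold, and 22 in SW620 with a filter of 5 FPKM, where 26 members remained to be counted; the shares of all genes were 14.2%, 14.4%, 10.3% and 29.9%. Members higher in DLD-1 numbered 8 over HCT116 and 21 over SW620 with a pseudocount of 5, and at 4-fold 2 over HCT116 and 4 over SW620, while TPM scaling gave 36 over HCT116. The shares of all genes were 8.22% and 8.04% with a pseudocount of 5, 5.04% and 4.82% at 4-fold, and 31.8% with TPM scaling, so at 4-fold the members' 2 of 54 over HCT116 lay below that of all genes. For SW620 over HCT116 the higher count was 2 with a pseudocount of 0.1 and 3 with TPM scaling, and the lower count was 4 with a pseudocount of 5 and 1 at 4-fold, against 18.3%, 19.3%, 6.13% and 3.95% of all genes. The mitosis median less the replication median stayed above 0 in HCT116, DLD-1 and SW620 under each alternative run. It was 1.20, 1.68 and 1.23 with a pseudocount of 0.1, and 0.19, 0.49 and 0.22 with 5. Median-ratio scaling gave 0.58, 1.04 and 0.50, TPM scaling gave 0.71, 1.13 and 0.78, and with protein-coding scaling 1.07 in DLD-1 and 0.57 in SW620. A filter of 5 FPKM gave 0.42, 1.06 and 1.51. Without CCNA2 and MYBL2 it was 0.61, 1.04 and 0.60, and without members that have copies or overlaps 0.70, 1.22 and 0.64. Coding transcripts alone gave 0.55, 1.07 and 0.41. Depth limits members with few fragments in HCEC-1CT, of either phase.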
